A study of Mus musculus with 8 samples.

Results

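The simple epithelial keratins led by *Krt18*, together with the muscle intermediate filament genes *Des*, *Vim*, *Nes* and *Synm*, were examined in muscle with and without *Grsf1*. The 8 genes, of 22911 named genes on the array, were *Krt18*, *Krt8*, *Krt19*, *Krt7*, *Des*, *Vim*, *Nes* and *Synm*. *Krt18* was chosen by its measured difference between Grsf1cKO and WT muscle in these same arrays, so its values are a description and carry no test. The other 7 genes were taken as its filament partners, its keratin relatives and the filament genes of muscle. The 8 genes were covered by 9 probes, 2 of them for *Synm*, and all 9 passed the detection filter. The question was whether *Krt18* was higher together with its partner *Krt8*, with *Krt19*, or with *Des*, *Vim* and *Nes*.

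RNA came from quadriceps muscle of 3 Grsf1cKO and 3 WT male mice aged 17 months and was measured on 8 Agilent 1-color arrays, because Grsf1cKO 1 and WT 1 were each hybridized again. Grsf1cKO mice descended from Grsf1tm1a mice of the European Mouse Mutant Archive. FLPo had removed the LacZ and Neo cassettes from this allele, and Myf5Cre then deleted the floxed exons IV and V. Myf5Cre acts in the *Myf5* lineage, which gives rise to muscle fibers and satellite cells, so that other cells of a whole muscle can keep *Grsf1*. The sources used here call the controls wild type and do not say whether they carried Myf5Cre or a floxed allele. The labels name the vastus intermedius, whereas the paper names the rectus femoris. Values are quantile-normalized log2 signals with the arrays of a mouse averaged, so that a difference of 1 is a doubling.

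Keratins form filaments only as pairs of a type I and a type II chain. *Krt18* (type I) and *Krt8* (type II) are the usual pair of simple epithelia, such as liver and gut lining, and *Krt19* (type I) and *Krt7* (type II) join them in ducts and other lining cells. Adult muscle fibers are built instead on desmin, which ties neighboring myofibrils together at the Z-disc and to the sarcolemma. Vimentin belongs to mesenchymal cells and immature muscle, nestin to regenerating fibers, satellite cells and the neuromuscular and myotendinous junctions, and synemin is a partner of desmin. Small amounts of keratin filaments are also known at the costameres, which couple the Z-discs to the membrane.

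The deleted gene was measured first. *Grsf1* stood at 12.15, 12.02 and 12.08 in the Grsf1cKO mice and at 14.30, 14.25 and 14.27 in the WT mice, each in the order 1, 2, 3. It fell by 2.19 (SE 0.08) on the log2 scale, with an adjusted *p* of 0.00328 in limma, and was lower in 3 of 3 Grsf1cKO mice. With the mouse numbers as a replicate block the adjusted *p* in limma was 0.25, the highest among the alternatives, whose lowest was 2.13e-05. Where this probe lies relative to the deleted exons was not known here. *Myf5*, whose gene drives the Cre, was not well above background in any mouse. The tissue label was checked with 14 skeletal muscle fiber genes, among them *Acta1*, *Ckm* and *Mb*, and all 14 were well above background in every mouse. On 7 arrays 66.3% to 73.1% of spots stood well above background, compared with 88.9% on the repeat array of Grsf1cKO 1.

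**Figure D1:**
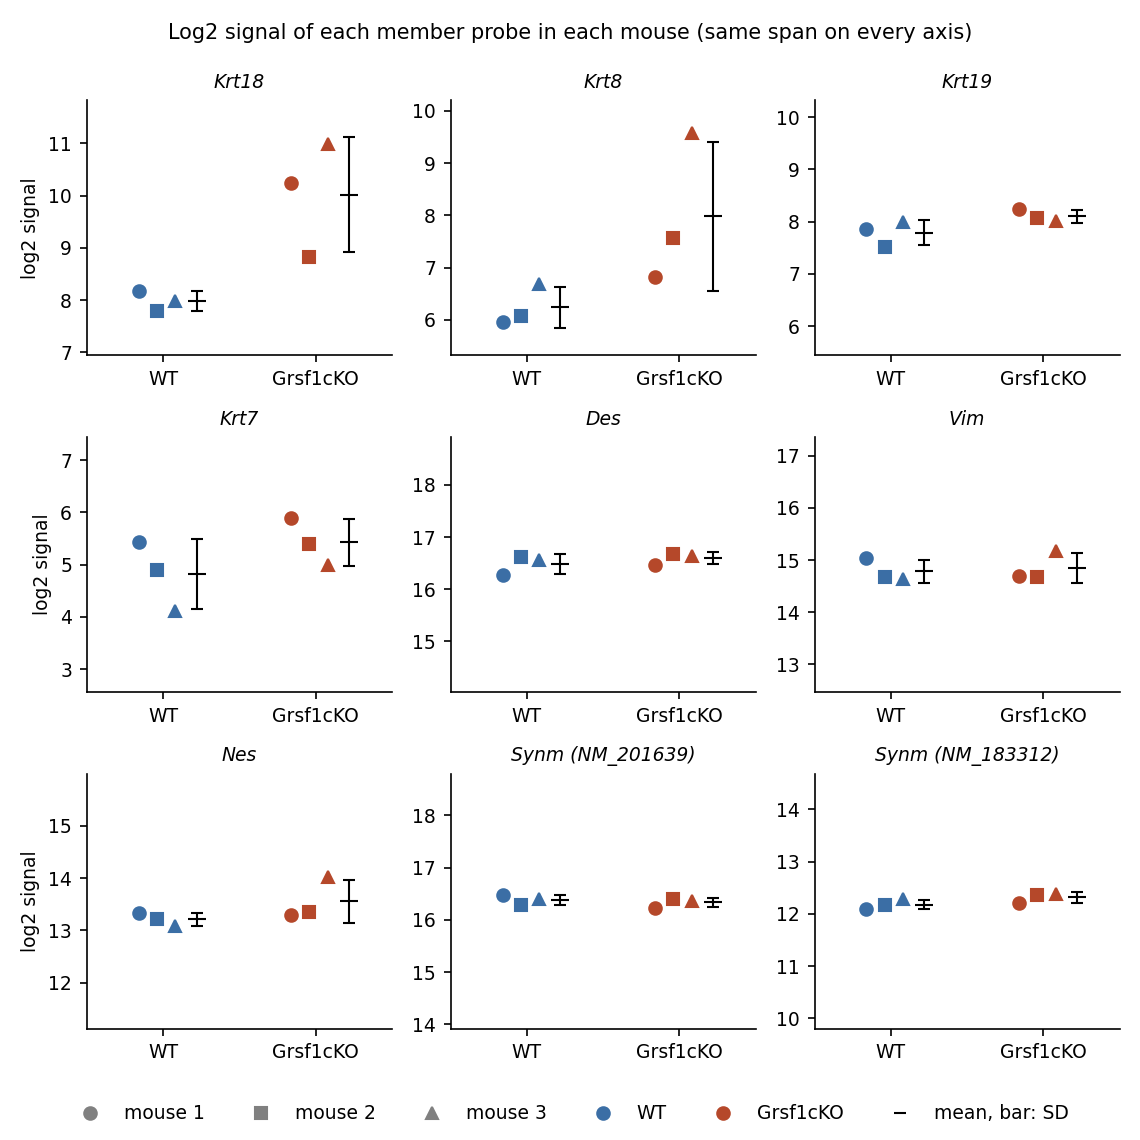
Log2 signal of the 9 member probes in each mouse, WT in blue and Grsf1cKO in red, with the mean and SD of 3 mice beside the points; every axis covers the same span. *Krt18* and *Krt8* show the widest separation and the widest spread among Grsf1cKO mice, from 8.82 to 10.98 and from 6.81 to 9.57.

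*Krt18*, the type I chain of the simple pair, had a log2 signal of 10.24 in Grsf1cKO 1, 8.82 in Grsf1cKO 2 and 10.98 in Grsf1cKO 3. WT 1, 2 and 3 had 8.18, 7.78 and 7.99. The genotypes did not overlap, and the lowest Grsf1cKO mouse stood 0.64 above the highest WT mouse. The 3 Grsf1cKO mice were far from uniform: relative to the WT mean they were 4.79-fold, 1.79-fold and 7.98-fold higher. The mean difference was 2.03 on the log2 scale, a fold of 4.09, with SDs of 1.10 among Grsf1cKO and 0.20 among WT mice (n = 3 each). Of 38888 probes tested, 16 had a higher fold. The difference was 1.55 without Grsf1cKO 3 and 2.63 without Grsf1cKO 2. The first and repeat arrays of Grsf1cKO 1 gave 10.22 and 10.27, and those of WT 1 gave 8.05 and 8.31.

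*Krt8*, the type II partner, had 6.81, 7.57 and 9.57 in Grsf1cKO mice 1, 2 and 3, against 5.95, 6.07 and 6.69 in WT mice 1, 2 and 3. The genotypes again did not overlap, but the gap was narrow, 0.13 between Grsf1cKO 1 and WT 3. For *Krt8* the repeat array of Grsf1cKO 1 differed from its first array by -0.43 and lay below WT 3. With the repeat arrays used instead of the first ones, the genotypes therefore overlapped for *Krt8*. Most of the mean difference came from Grsf1cKO 3, which was 10.1-fold above the WT mean, whereas Grsf1cKO 1 and 2 were 1.49-fold and 2.51-fold above it. The order of the mice also differed between the partners, since Grsf1cKO 1 was second for *Krt18* and last of the 3 for *Krt8*. The mean *Krt8* difference was 1.75 on the log2 scale (SE 0.70, 95% interval 0.03 to 3.46), a fold of 3.35, and 23 tested probes had a higher one. In limma the unadjusted *p* was 0.0469 and the adjusted *p* 0.996, with the *Krt8* signal higher in 3 of 3 Grsf1cKO mice. The 2-sided exact permutation *p* was 0.1, the smallest that 3 mice against 3 allow. Without Grsf1cKO 3 the difference was 0.95, and without Grsf1cKO 1 it was 2.33. These *p*-values measure the spread among the 6 mice. In a whole muscle, more keratin RNA per cell and more cells that contain it cannot be told apart.

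*Krt8* and *Krt18* are neighbors on chromosome 15 and are read in opposite directions, with 23874 bases between their starts in GRCm38.p6. Because these were the members with the largest differences, the 250 bases before each start are shown, 5′ to 3′, from RefSeq. The *Krt18* stretch is chr15:102027966-102028215 on the plus strand and the *Krt8* stretch is chr15:102004343-102004592 on the minus strand. Capitals mark matches, on either strand, to the motifs TATAA (TATA core), GGGCGG (GC box), CANNTG (E-box), TGANTCA (AP-1) and the CArG box.
Krt18: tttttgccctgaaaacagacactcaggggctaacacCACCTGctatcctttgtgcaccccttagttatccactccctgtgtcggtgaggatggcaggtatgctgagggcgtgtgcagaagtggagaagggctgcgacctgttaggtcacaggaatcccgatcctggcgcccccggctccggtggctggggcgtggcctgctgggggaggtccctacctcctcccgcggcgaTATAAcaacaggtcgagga
Krt8: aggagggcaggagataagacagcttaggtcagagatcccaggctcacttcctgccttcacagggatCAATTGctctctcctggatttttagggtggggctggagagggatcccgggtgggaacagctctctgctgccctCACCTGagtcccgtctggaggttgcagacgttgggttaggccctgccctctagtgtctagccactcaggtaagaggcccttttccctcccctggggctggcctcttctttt
The *Krt18* stretch held a TATAA 19 bases and an E-box, CACCTG, 214 bases before the start. The *Krt8* stretch held no TATAA and had E-boxes 184 and 111 bases before the start, the nearer of them also CACCTG. Neither held a GC box, an AP-1 motif or a CArG box. Among 32851 promoter stretches of the same length, 22.8% held TATAA, 66.2% an E-box, 32.7% a GC box, 6.75% an AP-1 motif and 1.47% a CArG box. Of the 8 members, 7 had a stretch in the table.

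The genes on either side of the pair did not share its pattern. On the *Krt8* side, the keratin gene *Krt79* had a difference of -0.16 (SE 0.20), *Krt4* had 0.49 (SE 0.24), and *Krt78* was not well above background in any mouse. On the *Krt18* side, *Eif4b*, a translation initiation factor, had -0.18 (SE 0.09), and *Tns2* and *Spryd3* had 0.04 and 0.05. The genotypes overlapped for each of these except *Eif4b*, which was lower in Grsf1cKO mice, and *p* in limma was between 0.0904 and 0.784 for the 5 tested.

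*Krt19*, which has almost no tail domain and pairs with *Krt8*, had 8.25, 8.06 and 8.01 in Grsf1cKO mice 1, 2 and 3 and 7.87, 7.52 and 7.99 in WT mice 1, 2 and 3. The genotypes did not overlap, yet Grsf1cKO 3 exceeded WT 3 by 0.019, less than the 0.32 between the arrays of Grsf1cKO 1. The *Krt19* difference was 0.31 on the log2 scale (SE 0.15), with an unadjusted *p* of 0.0795 and an adjusted *p* of 0.996 in limma. Grsf1cKO 3, highest for *Krt18* and *Krt8*, was the lowest Grsf1cKO mouse for *Krt19*.

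*Krt7*, a type II chain of ducts and mesothelium, was near the detection limit and was well above background on 7 of 8 arrays, WT 3 being the exception. Its log2 signal was 5.90, 5.39 and 5.0003 in Grsf1cKO mice 1, 2 and 3 and 5.44, 4.90 and 4.10 in WT mice 1, 2 and 3, with the genotypes overlapping. The *Krt7* difference was 0.62 (SE 0.39), with an adjusted *p* of 0.996 in limma. It rested in part on the repeat array of Grsf1cKO 1, which gave 6.87 where the first array gave 4.93, and it was 0.24 over the first arrays alone.

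*Des*, the main filament gene of muscle fibers, had 16.47, 16.68 and 16.63 in Grsf1cKO mice 1, 2 and 3 and 16.26, 16.62 and 16.55 in WT mice 1, 2 and 3. The genotypes overlapped, and the difference of 0.12 had a 95% interval from -0.19 to 0.43 and was 0.0094 without WT 1. For its partner *Synm*, the probe of NM_201639 ranged from 16.23 to 16.40 in Grsf1cKO and from 16.29 to 16.48 in WT mice. The probe of NM_183312 ranged from 12.20 to 12.39 and from 12.10 to 12.28. The *Synm* differences were -0.05 and 0.13, opposite in sign and each smaller than 2 SE, and the former was positive with the deposited *z*-scores.

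*Nes*, nestin, had 13.29, 13.35 and 14.03 in Grsf1cKO mice 1, 2 and 3 and 13.34, 13.21 and 13.09 in WT mice 1, 2 and 3. Grsf1cKO 3 was high, whereas Grsf1cKO 1 and 2 lay close to the WT mice, and the difference of 0.35 (SE 0.22, 95% interval -0.18 to 0.87) was 0.11 without this mouse. *Vim*, vimentin, had 14.69, 14.67 and 15.18 in Grsf1cKO mice 1, 2 and 3 and 15.04, 14.68 and 14.65 in WT mice 1, 2 and 3. Grsf1cKO 3 was again highest, with a *Vim* difference of 0.06 (SE 0.19) over all mice and -0.11 without Grsf1cKO 3. Adjusted *p* in limma was 0.996 for *Nes* and *Des* and 0.998 for *Vim*.

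**Figure D2:**
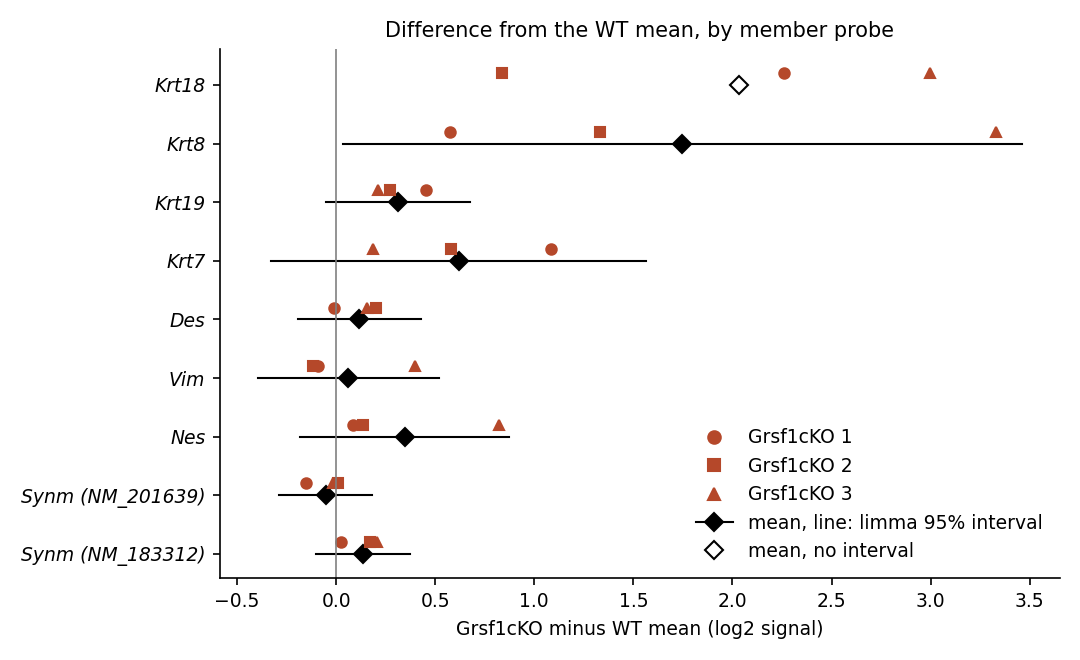
Difference of each Grsf1cKO mouse from the WT mean (red symbols) and the mean difference (diamonds) on the log2 scale, with the 95% interval from limma as a line; *Krt18*, chosen by this difference, has no interval. The *Krt8* interval starts at 0.03, while those of *Krt19*, *Krt7*, *Des*, *Vim*, *Nes* and *Synm* include 0.

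Of the 8 probes other than that of *Krt18*, 0 passed the study's criteria in limma (fold over 1.5, *p* under 0.01, false discovery rate under 0.2), compared with 0.00771% of all probes tested. At an unadjusted *p* under 0.05, 1 of the 8 probes, that of *Krt8*, was higher and 0 were lower, against 1.29% and 2.96% of all probes. The genotypes did not overlap for 2 probes that were higher, those of *Krt8* and *Krt19*, and for 0 that were lower, against 3.08% and 6.27% of all probes with values in 6 mice. The count of 2 became 5 without Grsf1cKO 1 and 4 without WT 1. The median difference of the 8 probes was 0.22, and that of all probes tested was -0.03. *Krt18* was chosen by this contrast and its partners were named with earlier results of it known, so nothing is read from these counts. All Grsf1cKO arrays shared slide 2 with WT 3 and the repeat of WT 1. With slide as a block the differences were 1.91 for *Krt18*, 1.67 for *Krt8*, 0.23 for *Krt19*, 0.85 for *Krt7*, 0.13 for *Des*, 0.06 for *Vim* and 0.31 for *Nes*. Within slide 2 they were 1.87, 1.72, 0.16, 0.75, 0.18, 0.02 and 0.33 in the same order. The unadjusted *p* of *Krt8* in limma then exceeded 0.05, at 0.0715 with the block and 0.107 within slide 2. It also did so without the detection filter (0.0553), with the repeat arrays (0.0722), and without Grsf1cKO 2 (0.0622), WT 1 (0.122), WT 2 (0.111) or WT 3 (0.0625). The unadjusted limma *p* of *Krt19* fell below 0.05 with scaling to the 75th percentile (0.0464) and without WT 3 (0.0448). That of *Krt7* did so with the mouse numbers as a replicate block (0.00862).

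Grsf1cKO 3 stood apart from the other mice. It exceeded all 5 others by more than 1 on the log2 scale at 247 of 38859 probes, compared with 128 for Grsf1cKO 1, 36 for Grsf1cKO 2 and 23 to 41 for the WT mice. It did not stand apart downward: it was lower than all others by more than 1 at 62 probes, compared with 110 for Grsf1cKO 1, 78 for Grsf1cKO 2 and 49 to 117 for the WT mice. The same mouse was high for several of 12 listed genes of fiber regeneration and denervation. *Myh3*, embryonic myosin heavy chain, had 9.85, 10.06 and 15.30 in Grsf1cKO mice 1, 2 and 3 and 10.01, 9.97 and 10.28 in WT mice 1, 2 and 3. *Chrng*, the fetal subunit of the acetylcholine receptor, had 7.15, 5.61 and 11.36 in Grsf1cKO mice and 5.87 to 6.45 in WT mice. *Mymk*, which fuses myoblasts, had 11.31 and *Myog*, a regulator of myoblast differentiation, had 11.31 in Grsf1cKO 3, against at most 7.41 and 9.33 in the other 5 mice. Not all of the list was high in Grsf1cKO 3. *Myod1*, another regulator of the muscle lineage, had 10.87 in Grsf1cKO 3, the lowest of the 6 mice, against 11.21 to 11.52 in WT mice. *Myh8*, the brightest gene of the list, lay near the top of the signal range, where quantile normalization sets values by rank and a difference can hardly show. The other 5 genes fall outside the rule for named genes and were chosen after their values were seen. The summed signal of the list without *Myh8* was 39888, 36187 and 119128 in Grsf1cKO mice 1, 2 and 3 and 25453, 32480 and 24091 in WT mice 1, 2 and 3.

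Within this list, all 12 genes were tested, 0 passed the criteria, and 2 were higher at an unadjusted limma *p* under 0.05, with 0 lower, against 1.15% and 2.28% of all named genes. These were *Chrna1*, the acetylcholine receptor alpha subunit that is spread along denervated fibers, and *Gadd45a*, a stress and denervation gene. *Chrna1* had 13.22, 12.79 and 14.04 in Grsf1cKO mice 1, 2 and 3 and 12.30, 12.56 and 12.52 in WT mice 1, 2 and 3, a difference of 0.89 (SE 0.32). *Gadd45a* had 12.67, 11.77 and 11.98 against 11.51, 11.63 and 11.44, a difference of 0.62 (SE 0.24). *Actc1*, cardiac actin, differed by 1.04 (SE 0.43), with an adjusted *p* of 0.996 in limma for all 3. Without Grsf1cKO 3 the differences of *Chrna1*, *Gadd45a* and *Actc1* were 0.54, 0.70 and 0.61. The genotypes did not overlap for 3 genes of the list, *Chrna1* and *Gadd45a* among them, and for 3 without Grsf1cKO 3, against 3.13% and 6.51% of all named genes. The median of the list was 0.66 with this mouse and 0.17 without it. *Krt18* was higher than in every WT mouse in Grsf1cKO 1 and 2 as well, for which the mean *Myh3*, *Mymk* and *Myog* differences from WT were -0.13, -0.40 and 0.01. The part of fiber regeneration in the keratin values of Grsf1cKO 3 was not tested.

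**Figure D3:**
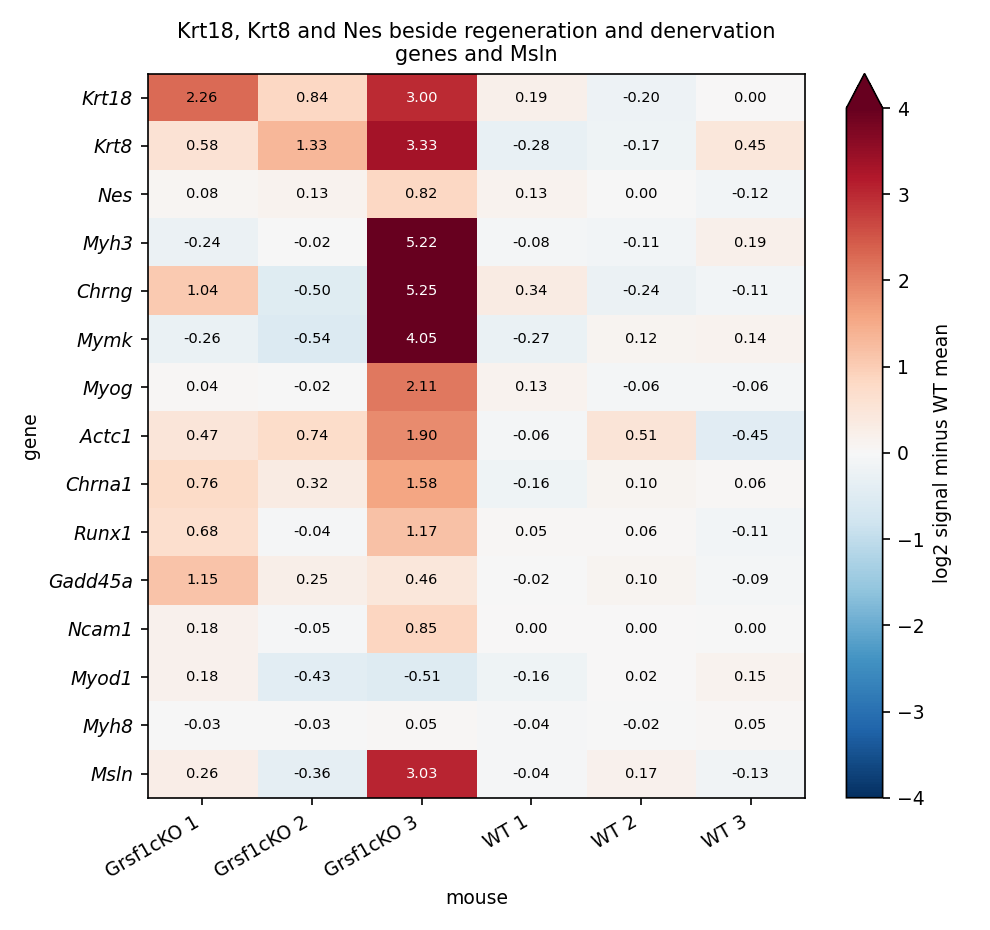
Log2 signal minus the WT mean in each mouse for *Krt18*, *Krt8*, *Nes*, genes of the regeneration and denervation list and *Msln*; red is above and blue below the WT mean, and colors end at 4. *Myh3*, *Chrng*, *Mymk*, *Myog* and *Msln* are high in Grsf1cKO 3, whereas *Krt18* is also high in Grsf1cKO 1.

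Markers of lining cells, the usual source of simple keratins, were examined next. Of 15 epithelial genes, 10 were tested and 3 were not well above background in any mouse, *Cldn4*, *Ocln* and *Rab25*. Their summed signal was 1278, 1262 and 1124 in Grsf1cKO mice 1, 2 and 3 and 1295, 1220 and 1297 in WT mice 1, 2 and 3, and *Cldn7* was the brightest. *St14*, a surface protease, was the gene higher at an unadjusted *p* under 0.05, with a difference of 0.35 (SE 0.12), and 0 were lower, against 1.15% and 2.28% of all named genes. The median was -0.01. *Elf3*, *Grhl2* and *Cdh1* differed by -0.52, 0.93 and 0.35 (adjusted limma *p* 0.996 each). *Epcam* differed by 0.05 (SE 0.49). Without Grsf1cKO 3 the differences of *Elf3*, *Grhl2*, *Cdh1* and *Epcam* were -0.43, 0.99, 0.53 and 0.43. *Grhl2* and *Epcam* were each well above background in 3 mice, so that their differences rest in part on values near background. The part of epithelial cells in the keratin values was not tested.

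Of 7 mesothelial genes, 6 were on the array and *Msln*, mesothelin, was the brightest and the 1 gene tested. *Msln* had 7.96, 7.33 and 10.72 in Grsf1cKO mice 1, 2 and 3 and 7.65, 7.86 and 7.57 in WT mice 1, 2 and 3, so that Grsf1cKO 3 alone was high. The difference was 0.98 (SE 0.86) over all mice and -0.05 without Grsf1cKO 3, with an adjusted *p* of 0.996 in limma over all mice. The other 5, *Upk3b*, *Upk1b*, *Wt1*, *Lrrn4* and *Bnc1*, were not well above background in any mouse. The summed signal was 283, 186 and 1723 in Grsf1cKO mice 1, 2 and 3 and 215 to 258 in WT mice, and without *Msln* it was 24.2 to 34.5 in all 6. Whether the *Msln* signal and the keratins of Grsf1cKO 3 shared a source was not tested. Of 8 keratinocyte genes, which include keratins of the list below, 6 were tested, *Trp63* was the brightest, and *Krt5* was lower and 0 were higher at an unadjusted *p* under 0.05, against 2.28% and 1.15% of all named genes. The summed signal of the keratinocyte list was 13942 to 15274 in Grsf1cKO and 14791 to 15733 in WT mice. Without *Trp63* it was 2774, 3403 and 3798 in Grsf1cKO mice 1, 2 and 3 and 3005, 2838 and 3190 in WT mice 1, 2 and 3. Among the keratinocyte genes *Lor* differed by -0.48 (SE 0.20), *Krt14* by -0.56 (SE 0.28) and *Sfn* by 0.44 (SE 0.26). Without Grsf1cKO 3 these differences were -0.66, -0.65 and 0.22.

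The other cell types of muscle were described by the same counts. No gene passed an unadjusted *p* of 0.05 in limma in the lists of endothelial cells (8 tested, median difference -0.08), fibroblasts (7 tested, 0.21), smooth muscle and pericytes (7 tested, -0.02), Schwann cells (7 tested, 0.05), macrophages (7 tested, 0.14) or muscle fibers (14 tested, 0.01). At that threshold 1.15% of all named genes were higher and 2.28% were lower. Summed signals of Grsf1cKO over WT mice were 0.95, 1.08, 1.06, 1.03, 1.03 and 1.01 in these lists. Without *Dcn*, its brightest gene, the fibroblast sum was 121287, 135581 and 186280 in Grsf1cKO mice 1, 2 and 3. In WT mice 1, 2 and 3 it was then 141338, 117913 and 109931. Without *Acta2* the smooth muscle and pericyte sum was 70313 to 89090 in Grsf1cKO and 75502 to 88629 in WT mice. The ratio of the muscle fiber list says little, since its brightest probes have values set by rank. Without Grsf1cKO 3 the medians were 0.06 for fibroblasts, 0.11 for smooth muscle and pericytes, and -0.07 for macrophages, of which 2 of 7 genes were then lower without overlap, against 10.8% of all named genes. The macrophage sum, in which *Itgam* was brightest, was 72190 in Grsf1cKO 3 and 54454 to 65362 in the other mice, and without *Itgam* it was 40770 against 21943 to 26132. *Cd68*, a lysosomal protein of macrophages, had 13.30 in Grsf1cKO 3 against 11.57 to 11.96. *Col3a1*, a fibroblast collagen, had 15.45 in Grsf1cKO 3 against 14.38 to 14.98. Of 4 tested satellite cell genes *Vcam1* was higher at an unadjusted *p* under 0.05 (0.36, SE 0.13), and *Pax7* differed by 0.10 (SE 0.22), with a list median of 0.10. Of 9 genes of the neuromuscular and myotendinous junction *Chrnb1*, the acetylcholine receptor beta subunit, was higher (0.58, SE 0.19), and the median was 0.09. In each of these lists this was 1 gene, and 0 were lower, against 1.15% and 2.28% of all named genes. Of the 9 junction genes 1 was higher without overlap, and 3 were without Grsf1cKO 3, against 3.13% and 6.51% of all named genes. *Chrne*, *Chrnd* and *Dok7* differed by 0.27, 0.41 and -0.22 over all mice, and by 0.29, 0.15 and -0.12 without Grsf1cKO 3. The part of macrophages and fibroblasts in the values of Grsf1cKO 3 was not tested.

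Other keratins were described next. Of 49 listed, 48 were on the array, 14 were not well above background in any mouse and 25 were tested. None passed the criteria. At an unadjusted *p* under 0.05 in limma 0 were higher and 4 lower, against 1.15% and 2.28% of all named genes. The median difference was -0.09. The 4 were *Krt5* (-0.44, SE 0.09), a basal keratinocyte chain, *Krt36* (-0.99, SE 0.26) and *Krt82* (-0.88, SE 0.35), chains of hair or tongue, and *Krt9* (-0.26, SE 0.10), the chain of palm and sole skin. *Krt36* was well above background in 5 mice and had 4.76 to 4.88 in Grsf1cKO mice, so that its difference rests in part on values near background. *Krt82* was low as well, with 5.08 to 5.57 in Grsf1cKO mice. *Krt5* was even within genotypes, with 6.14, 6.08 and 6.14 in Grsf1cKO mice 1, 2 and 3 and 6.48, 6.57 and 6.64 in WT mice 1, 2 and 3. The genotypes did not overlap, lower in Grsf1cKO mice, for 4 of the 25 keratins, 16.0%, and for 6.11% of all named genes. These were *Krt5*, *Krt36*, *Krt9* and *Krt12* (-0.41, SE 0.23), whereas the genotypes overlapped for *Krt82*. Of the 25 keratins, 0 were higher without overlap. Without Grsf1cKO 3, where fewer mice are compared, 4 were higher without overlap and 5 lower, against 6.51% and 10.8% of all named genes. The 4 higher, chosen after their values were seen, were *Krt13* (1.09), *Krt4* (0.60), *Krt20* (0.58) and *Krt42* (0.36). Over all mice their differences were 0.55, 0.49, 0.09 and 0.19 in the same order, and *Krt13* and *Krt4* were each well above background in 4 mice.

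Filament genes outside the keratins followed. Of 10 tested among the other intermediate filament genes, 0 passed an unadjusted *p* of 0.05 in limma. At that threshold 1.15% of all named genes were higher and 2.28% were lower. The list median was -0.14, and the differences ranged from -0.50 (*Nefm*, a neurofilament, SE 0.44) to 0.16. *Nefm* was well above background in 4 mice, and its difference was -0.0066 without Grsf1cKO 3. *Lmnb2* and *Lmnb1*, nuclear lamins, differed by -0.13 and -0.16, *Lmna* by 0.16 and *Ina*, a neuronal filament, by -0.20. Linkers of filaments, 13 tested, also had 0 genes at an unadjusted *p* under 0.05, against the same 1.15% and 2.28% of all named genes. The linkers had a median of 0.00 and a range from -0.42 (*Pkp1*, a plakophilin, SE 0.69) to 0.26, and included *Plec*, which anchors desmin, at 0.01 (SE 0.08). *Pkp1* was well above background in 3 mice, and its difference was -1.01 without Grsf1cKO 3. The desmosomal plakophilin *Pkp3* and plakoglobin *Jup* differed by 0.26 and 0.20, the cytoskeletal linkers *Macf1* and *Dst* by 0.14 and -0.10. The dystrophin complex and costamere, 21 tested, had a median of 0.01 and 0 genes at an unadjusted *p* under 0.05, against the same shares. *Ank2*, *Dtnb* and *Itga7* differed by -0.13, -0.17 and 0.11.

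Chaperones that act on filaments were another list in which Grsf1cKO 3 was high. *Cryab*, the small heat shock protein that binds desmin, had 17.85, 17.83 and 18.18 in Grsf1cKO mice 1, 2 and 3 and 17.68, 17.77 and 17.58 in WT mice 1, 2 and 3, a difference of 0.28 (SE 0.13). *Hspb8*, its relative in filament quality control, differed by 0.25 (SE 0.11), *Hspb1* by 0.32 (SE 0.18) and *Dnajb6* by 0.07 (SE 0.08). Without Grsf1cKO 3 the differences of *Cryab*, *Hspb8*, *Hspb1* and *Dnajb6* were 0.17, 0.14, 0.15 and 0.06. Of 10 genes tested, 0 reached an unadjusted *p* of 0.05 in limma, where 1.15% of all named genes were higher and 2.28% lower. The genotypes did not overlap for 3, *Cryab*, *Hspb8* and *Dnajb6*, as they did not for 3.13% of all named genes. The median difference was 0.04. The summed signal was 1044570 in Grsf1cKO 3 and 790647 to 893593 in the other 5 mice.

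The genes whose pattern over the 6 mice was most like that of *Krt18* were sought among 1979 probes of named genes with an SD of at least 0.5. The 10 with the highest Pearson's *r* were *Runx1* (0.988), *Cxcl10* (0.985), *Rrad* (0.981), *Gm32914* (0.977), *Psrc1* (0.972), *Ggt6* (0.958), *Cpne2* (0.953), *Tjp3* (0.951), *Chrna1* (0.944) and *Tubb6* (0.943). *Runx1*, a transcription factor of denervated muscle, had 7.99, 7.03 and 8.29 in Grsf1cKO mice 1, 2 and 3 and 6.95, 6.73 and 6.64 in WT mice 1, 2 and 3. *Cxcl10*, an interferon-induced chemokine, had 10.05, 8.94 and 11.08 against 8.16, 8.32 and 8.22. *Ggt6*, a gamma-glutamyltransferase gene, had 9.07, 7.98 and 8.82 against 7.35, 7.05 and 7.19. Without Grsf1cKO 3, *r* over 5 mice was 0.88 for *Tubb6* and higher for the other 9, up to 0.999 for *Ggt6*. The brighter *Runx1* probe, used in the list above, gave a smaller difference, 0.60 against 0.9995. These *r* values describe 6 points in separate genotypes. The 10 genes were chosen by *r*, so their likeness to *Krt18* follows from the choice. They did not all share its order of mice: *Ggt6* was highest in Grsf1cKO 1.

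The same measure was taken for the members. *Krt8* had an *r* of 0.80, position 58 among the 1979 probes, and 0.47 without Grsf1cKO 3. *Nes* had 0.79 with that mouse and 0.44 without it. *Krt19* had 0.63 and 0.81, *Krt7* had 0.43 and 0.74, *Vim* 0.50 and -0.16, and *Des* 0.19 and -0.06, in each case first over 6 and then over 5 mice. *Krt8* and *Krt19*, like *Krt18*, were higher in 3 of 3 Grsf1cKO mice than in any WT mouse, *Krt19* by the narrowest gap, and neither had the *Krt18* order of the Grsf1cKO mice. The mean differences of *Des*, *Vim* and *Nes* over all mice were 0.12, 0.06 and 0.35, with Grsf1cKO 3 at 0.40 above the WT mean for *Vim* and 0.82 for *Nes*.

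**Figure D4:**
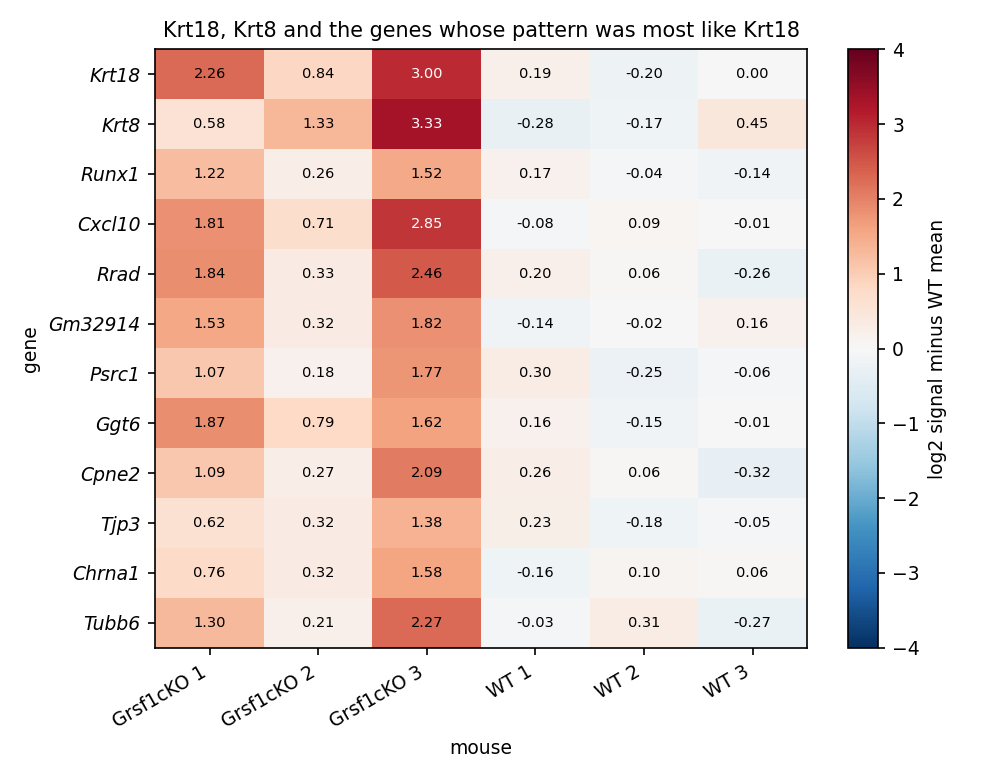
Log2 signal minus the WT mean in each mouse for *Krt18*, *Krt8* and the 10 genes with the highest Pearson's *r* with *Krt18* over the 6 mice; red is above and blue below the WT mean. The 10 genes were chosen for this likeness, and *Krt8*, which was not, is lowest in Grsf1cKO 1 among Grsf1cKO mice.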

How the data were processed

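Total RNA of 3 Grsf1cKO and 3 WT mice was hybridized to 8 arrays. The authors deposited the Feature Extraction 12.0.3.1 output of each array, with the background-corrected intensity of each spot, and a table with a score, a *z*-score, for each spot. Control spots were left out and outlier spots set to missing. The log2 processed signals of the 8 arrays were quantile normalized, as the methods state, and averaged over spots and over the arrays of a mouse. Of 56605 probes, 32994 were given a symbol through the RefSeq table of GRCm38.p6, used for names and neighbors. A probe was kept if it was well above background in 3 or more mice and had values in 2 or more per genotype. The 38888 kept were fitted in limma 3.58.1 (R 4.3.3), and *p* was adjusted over all of them by Benjamini-Hochberg. The code was tested on simulated data. For a listed gene the brightest probe was used. Named genes are the members, *Grsf1*, *Myf5*, the 3 nearest genes on either side of *Krt8* and *Krt18*, up to 4 genes of each list with the smallest *p*, and the 10 genes most like *Krt18*; others named were chosen after their values were seen. The members and lists were chosen with earlier results of these data known. Alternatives covered normalization, background correction, the *z*-scores, the filter, repeat arrays, slide, trend, replicate number and each mouse left out. The number of arrays limits the precision.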

Additional observations from a re-analysis of the deposited data

How the results depend on the processing

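*Krt18*, *Krt8*, *Krt19*, *Krt7*, *Des*, *Nes* and the NM_183312 probe of *Synm* kept their direction under all 18 alternatives, of which both filters, the trend and the replicate block leave a difference of means as it is. Of the member probes, 0 passed the criteria under any, and *Krt7* was not tested under the stricter filter. The *Krt18* difference ranged from 1.55 to 2.63, that of *Krt8* from 0.95 to 2.33 (adjusted limma *p* 0.751 to 0.99997), of *Krt19* from 0.16 to 0.41, of *Krt7* from 0.18 to 0.9999, of *Nes* from 0.11 to 0.48 and of *Des* from 0.0094 (without WT 1) to 0.23 (*z*-scores). *Synm* (NM_201639) became 0.079 with the deposited *z*-scores and 0.041 as the mean of both *Synm* probes. With each mouse left out in turn, *Vim* ranged from -0.11 to 0.19, and it was -0.0086 without WT 3. The count of members other than *Krt18* higher without overlap, 2, was 1 with the *z*-scores. It was also 1 with the repeat arrays used instead of the first ones, where the genotypes overlapped for *Krt8* and not for *Krt19*. The count ranged from 2 to 5 with a mouse left out: it was 5 without Grsf1cKO 1 and 4 without WT 1. Apart from the *Krt8* overlap on the repeat arrays and the smaller groups, the cause was not tested.

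Whether mice with the same replicate number were paired was not known here. Same-numbered mice correlated at 0.232, 0.097 and 0.104 in their deviations from the group means. Each mouse correlated best with its own number, which is a hint from the data and does not settle the pairing. With the replicate block, 1 probe in place of 3 passed the criteria among all probes and the adjusted limma *p* of *Grsf1* was 0.25, against 2.13e-05 to 0.0691 under the other alternatives; the adjusted *p* was 0.751 for *Krt8* and for *Krt7*, whose unadjusted limma *p* of 0.00862 was its lowest under any alternative. The list counts and medians and the correlations without Grsf1cKO 3 were added after seeing the data. *Krt7* lay near background, which limits its values. With 3 mice a genotype, a *p* that misses the threshold does not show equal levels.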

Other observations

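Other listed genes split the mice without regard to genotype and were chosen after their values were seen. *Nefh*, the heavy neurofilament chain of motor axons, was well above background in 4 mice and had 7.41, 4.24 and 7.29 in Grsf1cKO mice 1, 2 and 3 and 7.32, 4.19 and 7.44 in WT mice 1, 2 and 3, so that mouse 2 of each genotype was low. *Myh7*, slow myosin heavy chain, had 11.35, 9.46 and 9.39 in Grsf1cKO mice 1, 2 and 3 and 9.27, 11.38 and 11.33 in WT mice 1, 2 and 3. *Tnnt1*, slow troponin T, had 12.70, 12.25 and 14.38 against 11.98, 12.79 and 13.02 and did not share the *Myh7* order.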
